A study of Homo sapiens with 9 samples.

Results

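The 8 genes described here encode ATP-binding cassette (ABC) transporters grouped as drug exporters: ABCC1, ABCC2, ABCC3, ABCC4, ABCC5, ABCG2, ABCB1 and ABCB6. Most pump drugs and drug conjugates out of cells, while ABCB6 is a porphyrin transporter of mitochondrial and other membranes. All 8 were chosen by symbol, and each matched 1 row of the deposited table, so 8 of its 61093 genes are members. The series holds 9 RNA-seq libraries, 3 per group, all of cells that carry the label HepG2, the name of a human hepatocellular carcinoma line. The control group carries no treatment in its labels. The other groups were given SKF-96365, which the series design names an inhibitor, or 2-APB, which it names an agonist. The channel meant is TRPV2, a calcium-permeable cation channel. The labels of the 2-APB libraries also carry the names ABP and TRPV2, and the treatment label was followed here. The labels give no dose, exposure time or vehicle. Nor do they say that replicate libraries came from separate cultures, so every p-value rests on the spread between libraries, which may be technical.

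ABC exporters couple the binding and hydrolysis of ATP to the movement of a substrate across a membrane. In hepatocytes some stand in the canalicular membrane and load bile, while others stand in the basolateral membrane and return conjugates to the blood. Several of the ABCC proteins carry glutathione, glucuronide or sulfate conjugates, and ABCB1 and ABCG2 are known for the unmodified drugs they expel from resistant tumour cells. Their transcription is known to respond to nuclear receptors such as PXR (NR1I2) and CAR (NR1I3), to the aryl hydrocarbon receptor and to the oxidative stress factor NRF2 (NFE2L2).

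The libraries held 14786059 to 19026545 reads, of which 6.90% to 8.04% were from mitochondrially encoded genes. Some libraries stood nearer to another group than to their own. Control 3 resembled SKF-96365 2 (Pearson r 0.988 across 17492 genes) and SKF-96365 3 (0.986) more than control 1 (0.961) or control 2 (0.957). SKF-96365 1 was closest to 2-APB 3 (0.988), 2-APB 3 to SKF-96365 1, and control 1 to 2-APB 3 (0.986, against 0.978 and 0.961 within control). In a list of 27 proliferation genes, control 3 (-0.52), SKF-96365 2 (-0.53) and SKF-96365 3 (-0.49) had the lowest mean centred log2 level, and the other libraries had 0.05 to 0.50. All 27 were lower in fitted level with SKF-96365 than in control (median -0.425), and 0 passed limma's test (0 at an unadjusted p under 0.05, all genes 4.0%). In 2-APB against SKF-96365 all 27 were higher and 0 passed, with 9 at an unadjusted p under 0.05 (all genes 7.30%). Hepatocyte secretory genes went against the label: their summed normalized count was 339 to 660 in control, 436 to 604 with SKF-96365 and 428 to 459 with 2-APB, 2 of 19 passed the filter on low values, and ALB, the albumin gene, reached 11.8 normalized counts at most. AFP reached 8.87. The mesenchymal filament gene VIM ran from 25957 to 44039, and of 10 markers of blood and endothelium 2 passed the filter, CD14 (35.5 to 81.6) and CDH5 (1.72 to 13.6), while PTPRC, HBB and PECAM1 stayed at or below 3.08. The blood and endothelial sum ran from 45.2 to 75.1 in control, 56.5 to 76.9 with SKF-96365 and 72.0 to 91.9 with 2-APB. The cells are therefore called cells labelled HepG2 throughout. TRPV2 itself ran from 51.7 to 209.

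Of the 8 members, 7 passed the filter (a normalized count of at least 10 in at least 3 libraries) and 5 had a mean of at least 50. A normalized count is a gene's read count divided by 1 size factor per library. To compare genes, it was divided by the exon length of the gene in GENCODE 29. Per kb of exon, ABCC2 stood highest with a mean of 531 over 9 libraries, followed by ABCC1 at 363, ABCC4 at 224, ABCC5 at 64.5 and ABCC3 at 50.3. ABCB6 had 7.21, ABCG2 5.41 and ABCB1 0.237. Within libraries, ABCC2 lay above ABCC1 in 8 of 9, and ABCC1 above ABCC4 and ABCC4 above ABCC5 in 9 of 9. ABCC5 lay above ABCC3 in 7 of 9, so these neighbours overlapped in range. ABCB6 lay above ABCG2 in 8 of 9 libraries per kb of exon but in 4 of 9 per kb of the longest coding sequence, so the order of these members depends on the length used. ABCC5 and ABCC3 kept their order in 9 of 9 on the coding scale. On the exon scale, the 8 members took 29.8% of the per-kb signal of the 48 ABC family genes listed, with 12.7% from ABCC2 alone, which ranked behind only ABCF1, a translation factor that does not span the membrane. On the coding scale, the share of the members was 25.0%, and ABCE1, a ribosome recycling factor, also ranked above ABCC2.

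**Figure D1:**
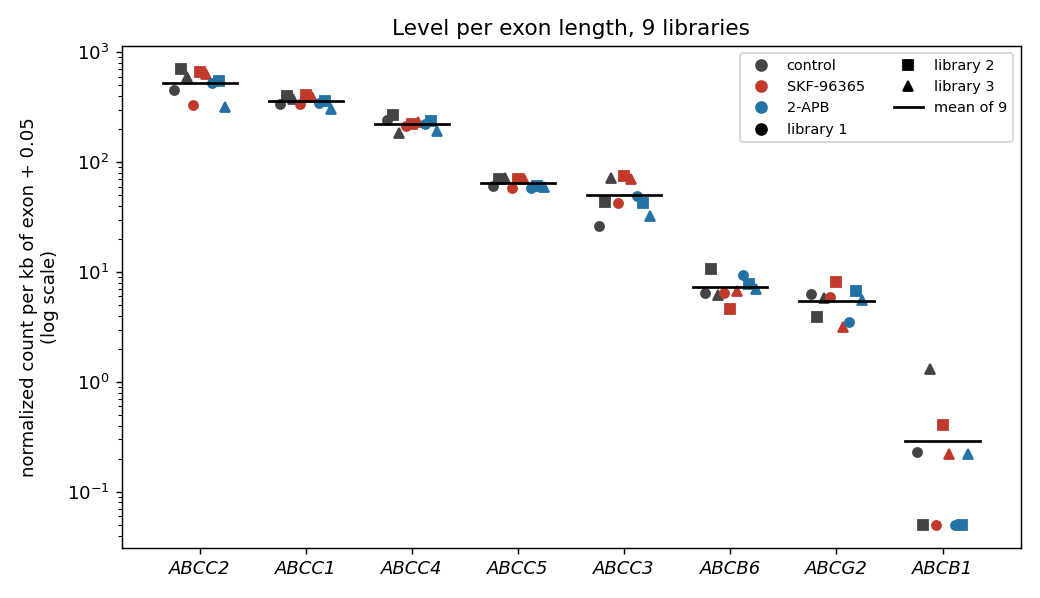
Normalized count per kb of exon plus 0.05, on a log axis, for the 8 members ordered by mean. Points are the 9 libraries, coloured by group with a symbol for the library number, and lines are means of the plotted values. ABCC2, ABCC1 and ABCC4 lie above 100 in all 9 libraries, and ABCB1 lies near the floor of the plot in most.

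Upstream sequence is shown for ABCC2, ABCC4 and ABCC5, the well expressed members (mean of 50 or more) that the RefSeq promoter table holds, to show how the start sites of 3 well expressed exporters differ in base composition and in a motif of the oxidative stress response. Of the 8 members, 6 have an entry, with 11 start sites among them. Each run holds the 250 bases before the RefSeq start (GRCh38.p14), read 5′ to 3′ on the gene's strand. Capitals mark the core of the antioxidant response element, which NRF2 binds, searched as TGACNNNGC on both strands. ABCC2 lies on the plus strand at chr10:99782390-99782639, ABCC4 on the minus strand at chr13:95301452-95301701 and ABCC5 on the minus strand at chr3:184017885-184018134.
ABCC2: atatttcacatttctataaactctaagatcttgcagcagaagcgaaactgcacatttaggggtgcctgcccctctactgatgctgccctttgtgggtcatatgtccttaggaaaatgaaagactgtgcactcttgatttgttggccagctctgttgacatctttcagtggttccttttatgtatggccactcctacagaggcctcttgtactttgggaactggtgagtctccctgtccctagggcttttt
ABCC4: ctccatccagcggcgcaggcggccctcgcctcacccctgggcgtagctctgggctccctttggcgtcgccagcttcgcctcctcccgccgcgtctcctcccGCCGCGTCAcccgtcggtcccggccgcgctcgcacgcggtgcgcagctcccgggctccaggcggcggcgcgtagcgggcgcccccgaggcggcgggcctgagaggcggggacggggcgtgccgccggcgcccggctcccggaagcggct
ABCC5: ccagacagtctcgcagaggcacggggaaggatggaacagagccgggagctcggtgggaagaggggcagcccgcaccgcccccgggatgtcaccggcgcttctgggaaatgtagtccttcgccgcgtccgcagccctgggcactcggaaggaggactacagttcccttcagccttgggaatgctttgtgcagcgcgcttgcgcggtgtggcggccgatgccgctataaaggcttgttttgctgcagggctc

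The core was found in ABCC4, on the reverse strand with its first base at position -149 from the start, and in ABCB6, on the forward strand at -152. It was not in the windows of ABCC2 or ABCC5, nor in the 2 windows of ABCB1 or the 5 of ABCG2, some of which overlap. Of all 35116 windows of this length in the table, 10.9% hold it, so 2 of 11 is a description of these letters and not a site. The ABCC2 window had 1 CpG and 45.6% G or C, the ABCC4 window 42 and 80.4%, and the ABCC5 window 21 and 64.8%. The median over all windows was 11 CpG and 58.0%.

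ABCC2, the canalicular exporter of bilirubin glucuronide and other conjugates, varied 2.23-fold between its lowest and highest library. Control libraries 1 to 3 had normalized counts of 3536, 5565 and 4692, SKF-96365 libraries 2600, 5179 and 4932, and 2-APB libraries 4128, 4300 and 2498, in the same order. Each group held 1 library well below its other two, and the low libraries were control 1, SKF-96365 1 and 2-APB 3. The group means were 4597 ± 1018 (control), 4237 ± 1423 (SKF-96365) and 3642 ± 995 (2-APB; SD, n = 3), and all 3 ranges overlapped.

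ABCC3, a basolateral exporter of glucuronides and bile acids, had the widest range of the 5 well expressed members, 2.80-fold. Control libraries 1 to 3 had 255, 419 and 689, SKF-96365 libraries 406, 713 and 682, and 2-APB libraries 478, 405 and 311. The 3 highest libraries were SKF-96365 2, control 3 and SKF-96365 3, which are also the 3 with low proliferation genes. Summed over the 27 genes, the proliferation list ran from 52987 to 99914 in control, 53033 to 77698 with SKF-96365 and 74089 to 97036 with 2-APB, with no gene of it at 0 throughout, and its part in the ABCC3 level was not tested. The group means of ABCC3 were 454 ± 219 (control), 600 ± 169 (SKF-96365) and 398 ± 83.9 (2-APB; SD, n = 3), and all 3 ranges overlapped.

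ABCC1, which exports glutathione conjugates such as leukotriene C4, was the steadiest of the 3 highest members. It had 2587, 3052 and 2876 (control 1 to 3), 2567, 3071 and 2945 (SKF-96365 1 to 3) and 2628, 2711 and 2334 (2-APB 1 to 3). The same libraries as for ABCC2 held the lowest value of each group, over a range of 1.32-fold. ABCC4, an exporter of cyclic nucleotides and bile acids, had 2074, 2340 and 1591 (control 1 to 3), 1857, 1928 and 2020 (SKF-96365 1 to 3) and 1923, 2029 and 1650 (2-APB 1 to 3). Control 3 was its lowest library and control 2 its highest, so the control group spanned all values of the treated ones. ABCC5, another exporter of cyclic nucleotides, had 702, 802 and 827 (control 1 to 3), 671, 801 and 798 (SKF-96365 1 to 3) and 668, 700 and 675 (2-APB 1 to 3). The 2-APB libraries all lay below the control libraries, with the highest 2-APB library next to the lowest control. In bulk RNA such as this, fewer cells with a transcript and less of it per cell cannot be told apart.

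The other 3 members were low. ABCG2, the breast cancer resistance protein, had 31.6, 19.3 and 29.2 (control 1 to 3), 29.7, 41.1 and 15.9 (SKF-96365 1 to 3) and 17.5, 33.5 and 27.6 (2-APB 1 to 3). These values rest on few reads: 40 in SKF-96365 2 (exact Poisson 95% interval 28.6 to 54.5) and 16 in 2-APB 1 (9.15 to 26.0). ABCB6, a porphyrin transporter of mitochondrial and other membranes, had 33.7, 55.8 and 32.4 (control 1 to 3), 33.2, 23.6 and 34.7 (SKF-96365 1 to 3) and 49.3, 40.4 and 36.5 (2-APB 1 to 3). In GENCODE 29, 2864 of its 5234 exon bases (54.7%) also lie in exons of ENSG00000284820, a protein-coding gene on the same strand with a mean of 4.98. How the authors counted reads that fall on both is not given in the sources used here, so the ABCB6 level is uncertain. The exons of the other 7 members overlapped no other GENCODE 29 gene. ABCB1, the P-glycoprotein gene and the classical multidrug resistance pump, had 11 reads in the 8 libraries where reads were recovered with certainty, with 0 in 4 of them and 7 in control 3, the last with an exact Poisson 95% interval of 2.81 to 14.4. It did not pass the filter and was given no test. A count of 0 allows, as a one-sided limit, up to 3 reads, which is 2.58 to 3.29 normalized counts in the 4 libraries. These intervals and limits cover counting error only, because PCR copies of a molecule cannot be told from separate molecules here.

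**Figure D2:**
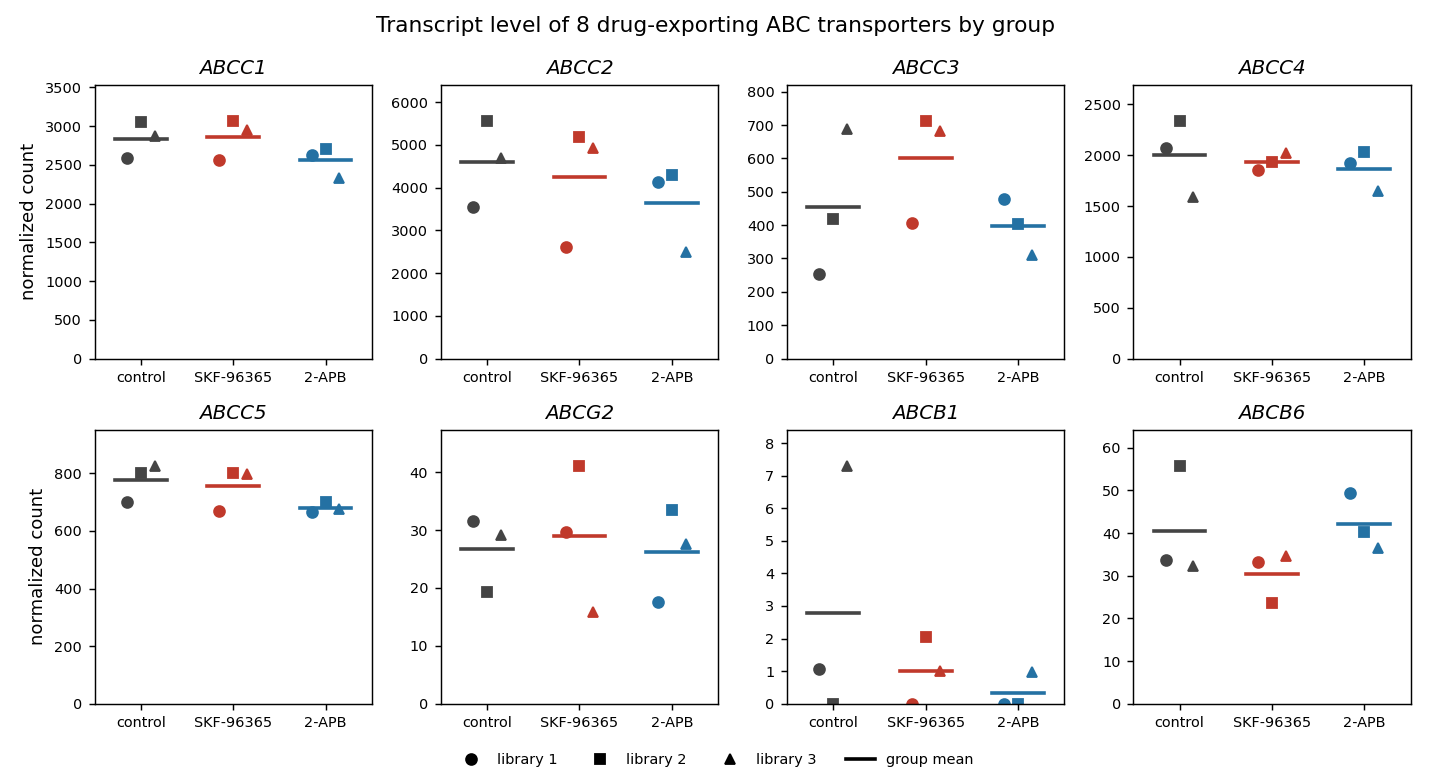
Normalized counts of the 8 members (vertical axes from 0, each with its own scale) in control, SKF-96365 and 2-APB. Points are libraries, with a symbol for the library number, and lines are group means. The ranges of the groups overlap in each panel, except that the 2-APB libraries of ABCC5 lie below control and those of ABCB6 lie above SKF-96365.

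SKF-96365 against control asks what the inhibitor does to these transcripts. Of the 7 tested members, 3 had higher and 4 lower fitted levels, and 0 passed limma's test, where 0% of all 17492 genes passed. At an unadjusted p under 0.05 there were 0 members and 699 genes (4.0%). With reads recovered from the normalized values, edgeR passed 0 genes (258 before adjustment) and DESeq2 passed 2 (241 before adjustment), none of them a member. These count tests leave out SKF-96365 3 and keep SKF-96365 1. No member had groups apart, against 6.20% of genes. ABCC3 had the largest fitted change, a log2 fold change of 0.47 with SKF-96365 (SE 0.34, 95% interval -0.28 to 1.23, limma adjusted p = 0.789). ABCB6 had -0.38 (interval -1.03 to 0.28), and -0.13 without control 2. For ABCC1 the interval ran from -0.25 to 0.27, for ABCC4 from -0.36 to 0.30 and for ABCC5 from -0.31 to 0.23. A change of 1 log2 unit in either direction lies outside the intervals of ABCC1, ABCC4 and ABCC5, and also outside those of ABCC2 (-0.81 to 0.50) and ABCG2 (-0.84 to 0.93). For ABCG2 this rests on the main fit: its log2 fold change was 0.043 there (SE 0.40) and 0.41 in limma without SKF-96365 3. A median of -0.032 over the 7 members stood beside -0.0043 over all genes. Without control 3 and SKF-96365 1, which are 2 of the 4 libraries nearer to another group than to their own, ABCC3 was the member that passed (log2 fold change 1.09, limma adjusted p = 0.0118). In that fit 4823 of the 17492 genes (not 0) passed, so passing does not set ABCC3 apart. These 2 were picked with earlier results known, and control 1 and 2-APB 3 stayed in, so that p is optimistic and rests on the choice. Leaving out 1 library, ABCC3 ran from 0.12 without control 1 to 0.83 without control 3.

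The effect of the agonist is addressed by 2-APB against control, which shares its control libraries with the preceding comparison. Fitted levels were lower for 6 of the 7 tested members and higher for ABCB6. By limma 0 members and 0 genes (0%) passed, and at an unadjusted p under 0.05 there were 0 members and 489 genes (2.80%). The count tests on recovered reads passed 0 genes as well, with 367 (edgeR) and 350 (DESeq2) before adjustment. The groups were apart for 1 of 7 members, ABCC5, and for 7.57% of all genes. ABCC5 had a log2 fold change of -0.19 (SE 0.12, interval -0.45 to 0.08, limma adjusted p = 0.9995). ABCC2 had -0.35 (SE 0.29, interval -1.01 to 0.30) and ABCC1 -0.15 (SE 0.12, interval -0.41 to 0.11). Both moved with single libraries: omitting control 1 gave -0.53 for ABCC2 and -0.22 for ABCC1, while omitting 2-APB 3 gave -0.10 and -0.085. The members' median was -0.097, and that of all genes -0.0016. ABCC3, at -0.097, turned to 0.26 without control 3 and to 0.070 without 2-APB 3, and was -0.455 without control 1.

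The third comparison sets 2-APB against SKF-96365, the labelled agonist against the labelled inhibitor. Doses and times are not in the labels, so the values stand side by side only as groups. Of the 7 tested members, 6 had lower fitted levels with 2-APB, 0 passed limma's test (0% of genes), and 0 were under an unadjusted 0.05 (7.30% of genes). On recovered reads, again without SKF-96365 3, 0 genes passed with edgeR (492 before adjustment) and 1 with DESeq2 (483 before adjustment), which was no member. ABCB6 was the member with groups apart, higher with 2-APB, where 17.0% of all genes had groups apart. It had a log2 fold change of 0.46 (SE 0.29, interval -0.19 to 1.11, limma adjusted p = 0.707), on 23 to 47 reads per library in these groups. ABCC3 had -0.57 (SE 0.34, interval -1.33 to 0.19, limma adjusted p = 0.700). Without control 3 and SKF-96365 1 it had -0.83 with an adjusted p of 0.0406 in limma, where 2283 of 17492 genes passed. These 2 libraries were picked with earlier results known, so that p is again optimistic and does not set ABCC3 apart. The members' median was -0.15, beside 0.0073 over all genes.

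**Figure D3:**
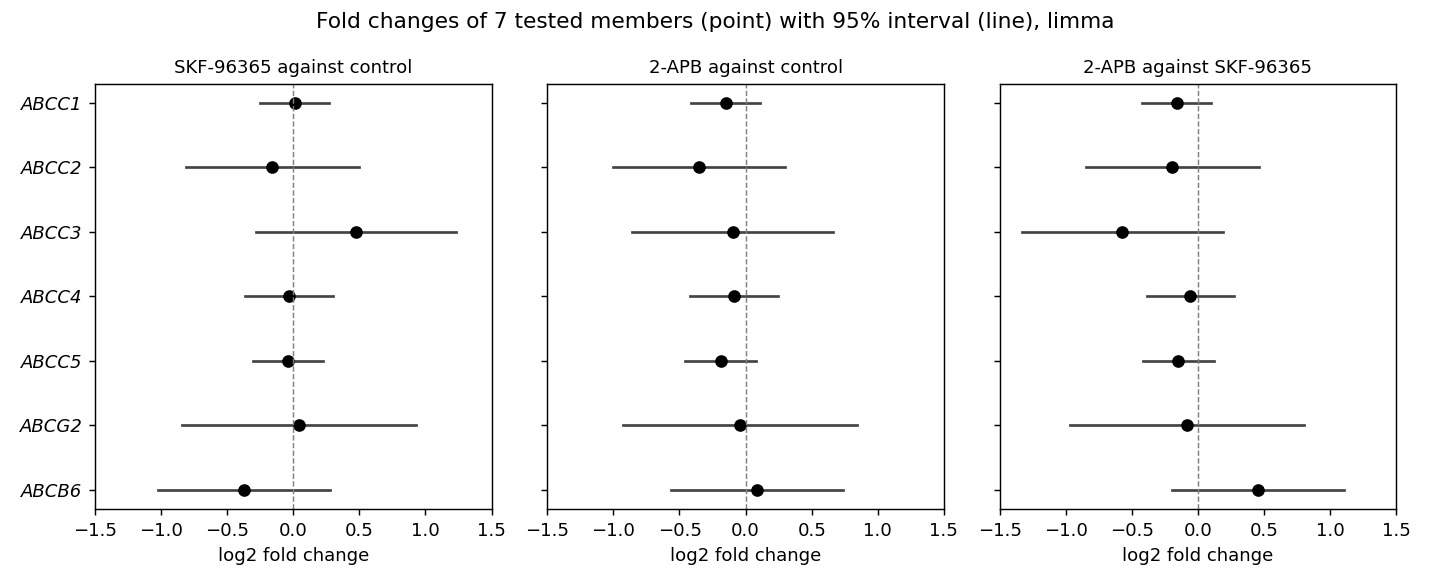
Log2 fold changes (points) with 95% intervals (lines) from limma for the 7 tested members in the 3 comparisons, each named in its panel. All 21 intervals include 0, and those of ABCC1, ABCC4 and ABCC5 are the narrowest.

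Members differed in which other genes lay closest to them across the libraries. Only ABCC2 and ABCC3 combined a mean normalized count of 50 or more with a range of 1 log2 unit or more, and for these each gene's log2 level was centred on its mean over the 9 libraries. Genes were then ordered by the mean absolute difference from the member. This measure has no test, and the libraries share their groups and states. It counts the size of a change as well as its direction, so a gene with the same low libraries but a narrower range can lie far away. Of 12380 genes compared, the closest to ABCC2 was LSS, lanosterol synthase of the cholesterol pathway, at 0.066 log2 units. SLC38A2, a neutral amino acid transporter, followed at 0.090, while the median gene lay 0.38 away. LSS had 1431, 2276 and 1979 (control 1 to 3), 1156, 1986 and 2039 (SKF-96365 1 to 3) and 1879, 1840 and 956 (2-APB 1 to 3). Its lowest library in each group was thus the same as that of ABCC2. It was highest in control 2 and lowest in 2-APB 3, as ABCC2 was. ABCC1 lay 0.24 from ABCC2, at rank 1134 of the genes, and ABCC5 0.26, ABCC4 0.30 and ABCC3 0.34. The lowest library in each group was the same for ABCC1 as for ABCC2. ABCC1 ranged over 0.40 log2 units and ABCC2 over 1.16, so the distance alone does not show a different pattern.

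ABCC3 had other close genes, though its lowest library in each group was again the same as for ABCC2. The closest genes were BTBD19, at 0.059, ANKRD29, at 0.068, and ABCA3, at 0.092 log2 units, where the median gene lay 0.46 away. ABCA3 is a fellow ABC transporter, known for lipid export in the lung. It had 832, 999 and 1672 (control 1 to 3), 916, 1716 and 1615 (SKF-96365 1 to 3) and 1104, 1004 and 775 (2-APB 1 to 3), so the same 3 libraries were highest as for ABCC3. ABCC1, ABCC2 and ABCC5 lay 0.35, 0.34 and 0.36 from ABCC3 and ABCC4 0.46.

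**Figure D4:**
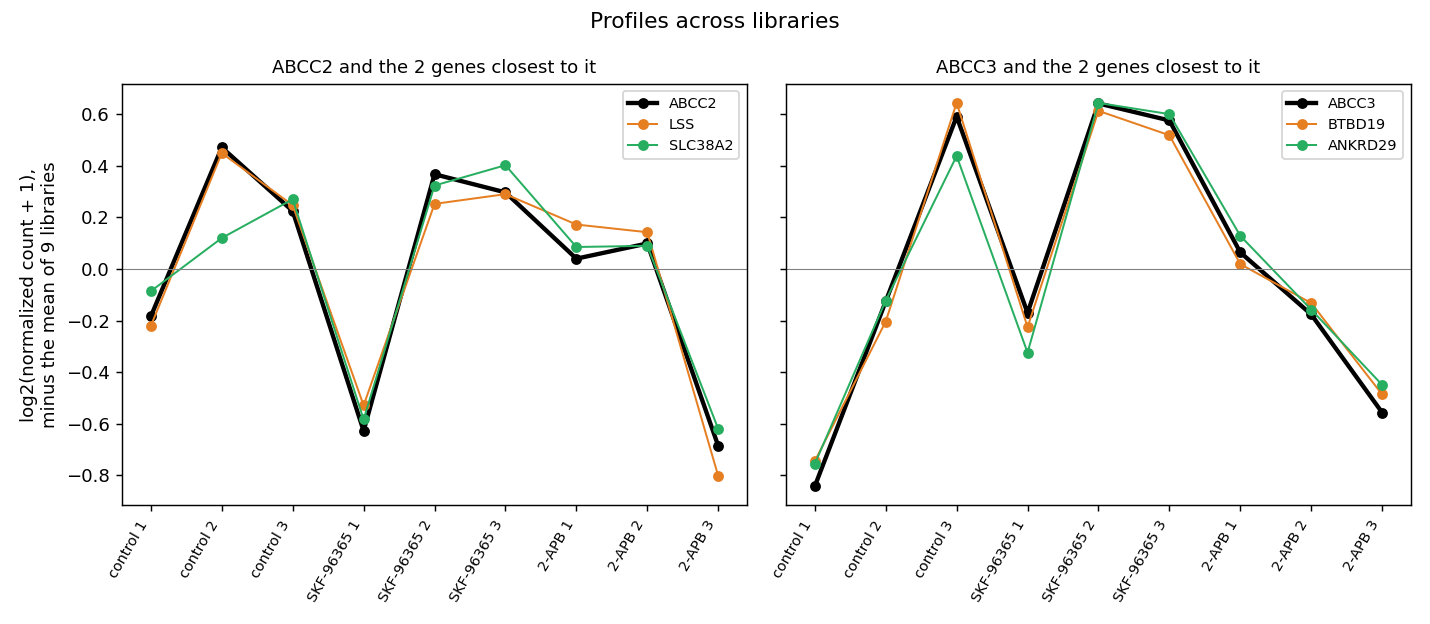
Log2(normalized count + 1) minus the mean over 9 libraries for ABCC2 (left) and ABCC3 (right), each with the 2 genes closest to it. The line only joins the libraries for the eye. ABCC2, LSS and SLC38A2 are lowest in SKF-96365 1 and 2-APB 3, while ABCC3 and its neighbours are highest in control 3, SKF-96365 2 and SKF-96365 3.

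The other 40 ABC transporters listed include lipid exporters, peroxisomal and mitochondrial carriers and the ABCE and ABCF proteins of translation, and 23 of them were tested. In limma 0 of the 23 passed in any comparison, and at an unadjusted p under 0.05 there were 0 with SKF-96365 and 1 with 2-APB against control. Of all genes, 4.0% and 2.80% lay under that limit. With SKF-96365, 10 had higher and 13 lower fitted levels than control, with a median log2 fold change of -0.051 (all genes -0.0043), and with 2-APB 9 and 14, with a median of -0.018 (all genes -0.0016). ABCF1 had the highest mean (3265), then ABCE1 (1952) and TAP1 (1800), a peptide transporter of antigen presentation. ABCA1, which exports cholesterol to lipoprotein particles, had the largest fitted change with SKF-96365 among those with a mean of 50 or more, 0.65 (SE 0.43, limma adjusted p = 0.789). Its 3 highest libraries were control 3 (2188), SKF-96365 2 (2428) and SKF-96365 3 (2458), and the others ran from 710 to 1396. ABCA7 had the largest with 2-APB under the same limit, 0.43 (SE 0.23, limma adjusted p = 0.9995).

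Among 23 xenobiotic sensors and genes of the NRF2 axis, 19 were tested and 0 passed in limma, with 2 (SKF-96365) and 3 (2-APB) at an unadjusted p under 0.05, where all genes gave 4.0% and 2.80%. Between the compounds 5 of the 19 were under that limit, where all genes gave 7.30%. Against control, 11 were higher and 8 lower in fitted level with SKF-96365 (median 0.11, all genes -0.0043), and 5 and 14 with 2-APB (median -0.15, all genes -0.0016). NR1I2, the PXR gene, reached 0.992 normalized counts at most, and NR1I3, the CAR gene, ran from 6.31 to 30.8. NFE2L1 had the highest mean of the list (5080), followed by NFE2L2 (2557) and the glucocorticoid receptor gene NR3C1 (2475). NFE2L2 was steady, from 2350 in 2-APB 3 to 2843 in SKF-96365 3. At a mean of 50 or more, BACH1, a repressor of NRF2 targets, had the largest fitted change with SKF-96365, 0.58 (SE 0.29, limma adjusted p = 0.789). MAFF, a small MAF partner, had the largest with 2-APB, -0.57 (SE 0.25, limma adjusted p = 0.9995).

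Of 38 genes of glutathione and conjugation, which make the substrates of several ABCC exporters, 27 were tested and 0 passed in limma (0 at an unadjusted p under 0.05 with either compound). Of all genes, 4.0% (SKF-96365) and 2.80% (2-APB) lay under that unadjusted limit. Between the compounds 2 of the 27 lay under it, where all genes gave 7.30%. With SKF-96365, 11 were higher and 16 lower in fitted level (median -0.028, all genes -0.0043), and with 2-APB 19 and 8 (median 0.13, all genes -0.0016). The cystine transporter gene SLC7A11 had the highest mean (4865), then PAPSS2 (2954), which makes the sulfate donor, and GSTP1 (2835), a glutathione transferase. PAPSS2 ran from 2842 to 3165 over the 9 libraries. GSTA4 had the largest fitted change in both at that same limit, 0.71 with SKF-96365 (SE 0.38, limma adjusted p = 0.789) and 0.68 with 2-APB (SE 0.38, limma adjusted p = 0.9995), at a mean of 57.8.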

How the data were processed

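Total RNA was turned into sequencing libraries with a SMARTer kit, per the labels' protocols. The deposited values are a normalized signal: gene counts that the authors divided by DESeq2 size factors, per the submitters' processing notes. Aligner, counter, genome build, annotation, strand setting and DESeq2 version are not given in the sources used here. Of 60605 Ensembl identifiers, 60463 (99.8%) matched the gene table; 488 loci were unnamed. Within each library 100% of values were whole multiples of the smallest, within 0.001 of a read. Reads were recovered in 8 libraries; in SKF-96365 3 the step, 0.992, was too near 1 to be certain.

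The test was limma 3.58.1 (R 4.3.3) with an intensity trend on log2(value + 1), two-sided, with 1 spread per gene over 9 libraries and Benjamini-Hochberg adjustment over the 17492 genes that reached 10 in 3 or more libraries. Calls needed an adjusted p under 0.05. It was tested on simulated data. Alternatives included edgeR 4.0.16 and DESeq2 1.42.0 on recovered reads, without SKF-96365 3. Fold changes on this scale understate changes of low genes.

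Members and the 11 lists (290 symbols) were chosen with earlier results of these data known. Named were all members and, per list, the 3 highest means and the largest change in each comparison with control at a mean of at least 50; others were named after their values were seen, and some genes that fall under the rule are not reported here. Lists without a count above were 19 hepatocyte, 18 mesenchymal and 10 blood or endothelial markers.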

Additional observations from a re-analysis of the deposited data

How the results depend on the processing

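The 12 kinds of alternative left 380 member values with the same direction and side of the threshold, while 32 turned in sign and 2, both of ABCC3, came to pass. Several alternatives keep the fold change as it was, so many of the 380 could not turn in sign. These are the changed filters, the replicate block, the fit of only the groups compared and the omission of a library outside the comparison. The 380 is therefore not a measure of stability. Calls over all genes depended on single libraries: leaving out 1 library gave 0 to 173 genes for SKF-96365 against control, 173 of them without control 3, 0 for 2-APB against control, and 0 to 4 for 2-APB against SKF-96365. Without both control 3 and SKF-96365 1 there were 4823 and 2283 genes in the comparisons that involve SKF-96365. DESeq2 gave 2 and 1 there, and fitting only the groups compared gave 4 for 2-APB against SKF-96365. The cause was not tested. The labels do not say whether library numbers pair the samples. In deviations from the group mean, 3 of 9 same-numbered pairs were correlated above 0.1, among them control 1 with SKF-96365 1 (0.50). By the same measure 3 of 9 libraries were closest to their own number. The library states described above also enter these deviations, so the check cannot settle pairing. With the replicate block 0 genes passed in each comparison.

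For SKF-96365 against control, ABCC1 turned to -0.023 with upper-quartile rescaling and to -0.0046 with DESeq2, which leaves out SKF-96365 3. Limma without that library gave -0.012. Without control 3 and SKF-96365 1, ABCC2 turned to 0.19 and ABCC5 to 0.091. In 2-APB against control the same omission turned ABCC3 to 0.26, ABCG2 to 0.036 and ABCB6 to -0.054, and equal totals turned ABCG2 to 0.0044. Leaving out 1 library in SKF-96365 against control gave ABCC1 -0.054 to 0.087, ABCC2 -0.34 to 0.16, ABCC4 -0.19 to 0.090, ABCC5 -0.11 to 0.044, ABCG2 -0.25 to 0.41 and ABCB6 -0.51 to -0.13. In 2-APB against control it gave ABCC2 -0.53 to -0.10, ABCC3 -0.455 to 0.26, ABCC4 -0.24 to 0.034, ABCG2 -0.25 to 0.21 and ABCB6 -0.054 to 0.33. In 2-APB against SKF-96365 it gave ABCC2 -0.51 to 0.057, ABCC4 -0.12 to 0.031 and ABCG2 -0.45 to 0.21. With a mean of at least 50 required, ABCG2 and ABCB6 had no value. Depth limits ABCB1, ABCG2 and ABCB6, at 11, 234 and 308 reads over the 8 libraries with reads recovered.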

Other observations

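Part of a list of cholesterol genes lay close to ABCC2 in pattern. This list of 25 genes was drawn up after the genes nearest to ABCC2 were seen, so its counts are a description. Of the 24 with a mean of at least 50, 10 were among the 100 genes closest to ABCC2 and 15 among the closest 1000, of 12380 compared. The median distance was 0.20 log2 units, beside 0.38 over all genes. DHCR7, which makes cholesterol in the last step of the Kandutsch-Russell route, lay 0.098 away, and FDFT1, the squalene synthase gene, 0.11. DHCR7 and FDFT1 were both lowest in 2-APB 3 (566 and 1347) and next lowest in SKF-96365 1 (677 and 1647). INSIG1, which holds back the sterol-sensing complex, was the farthest of the 24 at 0.49, and its highest libraries were control 3 (3091), SKF-96365 2 (3322) and SKF-96365 3 (3389). The lowest for INSIG1 were 2-APB 3 (530), control 1 (926) and SKF-96365 1 (948), which are also the low libraries of ABCC2. Its distance thus includes a wider range.

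Of 43 phase I enzyme genes, 31 were tested and limma passed 0 against control (2 with SKF-96365 and 0 with 2-APB at an unadjusted p under 0.05). All genes gave 4.0% (SKF-96365) and 2.80% (2-APB) at that unadjusted limit. Between the compounds 1 of the 31 lay under it, where all genes gave 7.30%. NQO1, a quinone reductase and NRF2 target, had the highest mean (7133) and its lowest library was SKF-96365 2 (5320), before control 3 (5532) and SKF-96365 3 (5704). ALDH3A2 (3895) and CYB5R3 (2057) followed. Among genes with a mean of 50 or more, a limit that holds for the largest changes named below as well, the largest fitted changes were CYP2S1 with SKF-96365 (0.86, SE 0.47) and MAOA with 2-APB (0.54, SE 0.29). Of 31 uptake transporters, 16 were tested and 0 passed in limma (before adjustment 0 against control with either compound, and 1 between the compounds). Between the compounds 7.30% of all genes had an unadjusted p under 0.05. SLC29A1, an equilibrative nucleoside transporter, led at 2428, followed by SLCO4A1 (1336) and SLC22A5 (568), and SLC29A4 had the largest fitted change with SKF-96365 (0.43, SE 0.32) and with 2-APB (0.41, SE 0.32).

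All 21 genes of heme synthesis and handling, the pathway of the ABCB6 substrate, were tested and 0 passed in limma (0 with SKF-96365 and 1 with 2-APB before adjustment). Before adjustment, all genes gave 4.0% (SKF-96365) and 2.80% (2-APB). Between the compounds 2 of the 21 lay under that unadjusted limit, where all genes gave 7.30%. The ferritin genes FTL (36767) and FTH1 (8557) and the transferrin receptor gene TFRC (7015) led. HMOX1, heme oxygenase, was highest in control 3 (5468), next in SKF-96365 2 (5108) and then SKF-96365 3 (4945), and ran from 1769 to 2865 elsewhere. Its fitted change was 0.55 (SE 0.35) with SKF-96365 and -0.65 (SE 0.35) with 2-APB. Of 20 genes that anchor or traffic membrane transporters, 19 were tested and 0 passed (0 and 1 before adjustment against control, beside the same shares of all genes). Between the compounds 3 of the 19 had an unadjusted p under 0.05, where all genes gave 7.30%. CAV1, caveolin, MSN, moesin, and EZR, ezrin, had the highest means (26112, 14214 and 8699). PIM1, a kinase gene, stood out by library: control 3 (3724), SKF-96365 2 (3714) and SKF-96365 3 (3708) were high, and the others had 823 to 1288. Its fitted change was 0.74 (SE 0.59) with SKF-96365, and the largest with 2-APB was MYO5B (0.53, SE 0.38).

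Among the marker lists, all 18 mesenchymal genes were tested and limma passed 0 (before adjustment 2 with SKF-96365 and 0 with 2-APB against control, and 4 between the compounds, where all genes gave 4.0%, 2.80% and 7.30%). SPARC (32763) and VIM (31329) led, TGFBI had the largest fitted change with SKF-96365 (-0.69, SE 0.27) and COL1A1 with 2-APB (0.79, SE 0.46). Of the 2 tested hepatocyte genes, SERPINA1 had a mean of 339 and VTN 145. Of the 2 tested blood and endothelial genes, CD14 had a mean of 51.6 and CDH5 of 7.03, and limma passed 0 (0 with SKF-96365 and 1 with 2-APB before adjustment).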
